A study of Rattus norvegicus with 12 samples.

Results

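Rapamycin treatment of the injured rat urethra was set against injury without rapamycin. The comparison holds 6 of the 12 libraries of the series, 3 labelled as urethral injury with rapamycin and 3 labelled as urethral injury alone, and it covers every gene of the count table. Libraries were placed in the groups by their treatment labels and not by measured values. All 6 libraries are poly(A)-enriched RNA from urethral tissue of male rats with a mechanical injury of the urethra. The other 6 libraries are sham tissue without injury and injured tissue given tetrahedral DNA nanostructure (TDN), 3 each, and serve here as reference levels. TDN is a particle assembled from synthetic DNA strands. No strain, age, dose, route or harvest time is labelled, nor whether injury without rapamycin included a vehicle or whether animals were pooled. Rapamycin is named in the treatment labels but not in the series' design text, and exposure to the drug was not checked here from the data of each library. Nothing ties each library to its own animal. The p-values below therefore cover the spread among libraries, and part of it may be technical.

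Rapamycin binds the immunophilin FKBP12, and the pair inhibits mTORC1, the kinase complex that couples nutrient and growth factor signals to protein synthesis, ribosome production and lipid synthesis and that holds back autophagy. In healing tissue the drug is known for slowing the proliferation of fibroblasts and lymphocytes. Much of mTORC1 control acts on translation and protein phosphorylation, which messenger RNA levels do not record. The count table names genes by Ensembl ID, and the symbol table used here matched 0 of its 32623 IDs. Genes are therefore given by ID, no pathway or cell type list was evaluated, and the labelled tissue was not checked against marker genes. In bulk tissue, fewer cells of a type and less RNA per cell cannot be told apart.

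Depth was similar across the 6 libraries, with 1 exception. Total counts ran from 44765817 to 55928721, and 18659 to 19077 genes had a count in 5 of the libraries. Rapamycin replicate 2 had the lowest total, 17475 genes with a count and a TMM scaling factor of 0.660, where the other 5 lay between 0.873 and 1.09. TMM is the trimmed-mean scaling of edgeR that corrects library size for composition. The counts of called genes, of separated genes and of narrow intervals are also given without that library.

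No gene differed between rapamycin and injury at a Benjamini-Hochberg adjusted p under 0.05 in edgeR's quasi-likelihood test. The count was 0 of 17521 tested genes (0%), and the smallest adjusted p was 0.241. At an unadjusted p under 0.05 the same test held 523 genes higher (2.98% of those tested) and 244 lower (1.39%) in rapamycin. Together these were 767 genes, 4.38% of those tested. A share of 0.05 is expected if no gene differs and the spread is alike in all groups. The fit pools the spread of all 12 libraries, and sham and TDN were tighter than injury and rapamycin. A fit of the 6 libraries alone held 186 of 16608 genes at that p. The excess of higher genes held with relative log expression factors (615 higher, 212 lower) and upper quartile factors (446 higher, 283 lower). It turned with library size alone, which makes no correction for composition, to 300 higher and 389 lower. The median of all genes then moved from -0.03 to -0.22 on the log2 scale. Without injury replicate 2 there was no excess (350 higher, 350 lower). DESeq2 called 21 genes higher (0.12% of those tested) and 9 lower (0.0514%). The limma voom method called 0 genes, with and without sample quality weights, and held 2230 and 645 genes at an unadjusted p under 0.05, respectively.

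Genes to describe were found by asking for the smallest p under 2 conditions. These were at least 5 CPM (TMM-scaled counts relative to library size) in the higher group and no overlap between the 3 rapamycin and the 3 injury libraries. The gene with the smallest p of all, ENSRNOG00000060075 (edgeR adjusted p = 0.241), was too scarce for this. It had 0.852 CPM in injury and 0.0245 CPM in rapamycin. Over all tested genes, the groups did not overlap for 3.94%. Of 11920 tested genes with at least 5 CPM in the higher group, 183 met both conditions on the higher side and 197 on the lower side. The first 2 of each are described. They were picked for their difference in these libraries, which inflates its size. By p they ranked 4, 7, 17 and 29 among all tested genes. None of the 4 passed the edgeR test after adjustment. Their SEs and intervals draw on the spread of all 12 libraries, and the tighter sham and TDN libraries can make them too narrow. In a fit of the 6 libraries alone, the unadjusted edgeR p values were 0.00372, 0.0218, 0.0321 and 0.0282 in the order below. With all 12 libraries they were 0.000108, 0.000299, 0.00142 and 0.00289.

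ENSRNOG00000036692 was at 20.5, 15.2 and 11.7 CPM in rapamycin replicates 1 to 3 and at 3.12, 5.43 and 4.11 CPM in injury. The lowest rapamycin library was 2.15 times the highest injury library. Sham tissue held 0.734 ± 0.122 CPM and TDN tissue 5.16 ± 0.49 CPM (SD, n = 3 each), so that the gene was scarce without injury and its 3 highest libraries were those given rapamycin. The log2 fold change of rapamycin over injury was 1.90 (SE 0.32, 95% interval 1.19 to 2.61, edgeR adjusted p = 0.472). DESeq2 gave an adjusted p of 5.48e-07, and over all 18 alternatives the adjusted p ran from 5.48e-07 to 1, with DESeq2 the only one to call it.

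ENSRNOG00000008481 was at 14.9, 16.0 and 12.5 CPM in rapamycin and at 5.84, 7.16 and 7.48 CPM in injury. Here the injury libraries were the lowest of the series. Sham held 17.5 ± 0.2 CPM and TDN 12.6 ± 0.3 CPM (SD, n = 3 each), and the rapamycin libraries lay below every sham library and overlapped TDN. The log2 fold change over injury was 1.08 (SE 0.21, 95% interval 0.63 to 1.54, edgeR adjusted p = 0.748). Alternatives gave adjusted p values from 5.48e-07 in DESeq2, the only call, to 1.

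ENSRNOG00000032446 was at 17.2, 14.9 and 15.8 CPM in rapamycin and at 29.1, 24.5 and 28.3 CPM in injury. All 3 injury libraries stood above the other 9 of the series, with sham at 16.5 ± 1.1 CPM and TDN at 17.6 ± 1.5 CPM (SD, n = 3 each). Rapamycin and sham overlapped. The log2 fold change over injury was -0.77 (SE 0.18, 95% interval -1.17 to -0.37, edgeR adjusted p = 0.902). DESeq2 gave the smallest adjusted p of the alternatives, 0.00127, and the only call, and the largest was 1.

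ENSRNOG00000020901 was at 9.47, 8.66 and 18.1 CPM in rapamycin and at 27.2, 21.4 and 29.8 CPM in injury. Rapamycin replicate 3 lay near the lowest injury library, and replicates 1 and 2 lay below all libraries of the series, sham included (12.1 ± 1.4 CPM, SD, n = 3). TDN tissue held 21.5 ± 0.8 CPM (SD, n = 3), near the lowest injury library. The log2 fold change over injury was -1.11 (SE 0.29, 95% interval -1.75 to -0.47, edgeR adjusted p = 0.902), and none of the 18 alternatives called it (adjusted p 0.0972 to 1). The same injury libraries enter every contrast with injury, so the nearness of rapamycin or TDN to sham in these 4 genes is a description of levels only.

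**Figure D1:**
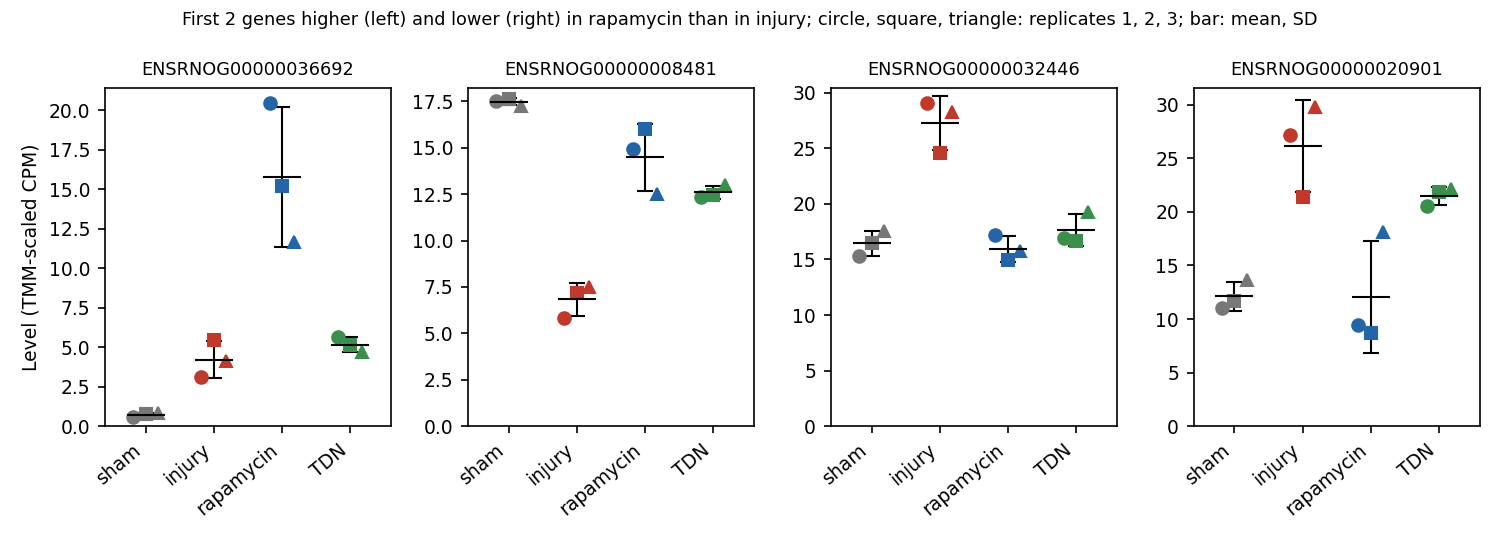
Level in TMM-scaled CPM (vertical axis, from 0) of 4 genes in each of the 12 libraries, by group; circles, squares and triangles are replicates 1, 2 and 3, and bars give mean and SD (n = 3). The 3 rapamycin and 3 injury libraries do not overlap in any of the 4 genes, which were picked for this, and the gap is narrowest in ENSRNOG00000020901.

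The 30 genes called by DESeq2 were of different kinds in each direction. Of the 21 higher genes, 13 reached 5 CPM in rapamycin or injury, 18 had no overlap between the groups, and 1 had no count in any injury library. Their DESeq2 log2 fold changes ran from 0.75 to 9.70 with a median of 2.53. The 9 lower genes were mostly scarce: 5 stayed under 1 CPM in both groups, 2 reached 5 CPM, and 4 had no count in any rapamycin library. Their fold changes ran from -0.73, in ENSRNOG00000032446, to -7.44 with a median of -5.26 on the log2 scale. The extremes belong to genes at 0 CPM in 1 group. These are ENSRNOG00000046301 (9.70, 0 CPM in injury) and ENSRNOG00000059666 (-7.44, 0 CPM in rapamycin). A fold change against 0 counts has no measurable size. The groups also did not overlap for 8 of the 9 lower genes, where the share of all tested genes was 3.94%. A small p and a lack of overlap both draw on the same 6 libraries, so these counts are not a separate result. All 30 had an unadjusted edgeR p under 0.05 (1.37e-05 to 0.00953), and their edgeR adjusted p values were 0.241 to 0.902. The calls thus rested on the tool. Of the 4 genes described above, 3 were among them, and ENSRNOG00000020901 was not.

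Clear separation between the groups was rare and small. The 3 rapamycin libraries lay above the 3 injury libraries for 305 genes (1.74% of those tested) and below them for 385 (2.2%). Together these were 690 genes (3.94%). If the labels of the 6 libraries were arbitrary, the expected share for 3 against 3 is 0.1, so these genes are described by level only. This balance is opposite to that of the unadjusted p values, and it too moved with the scaling, to 194 higher and 565 lower with library size alone and 359 higher and 324 lower with relative log expression factors. Without rapamycin replicate 2, where 2 libraries are set against 3, the counts were 1059 higher and 1039 lower. Among separated genes of at least 5 CPM, the median absolute log2 fold change was 0.57 for the 183 higher genes and 0.48 for the 197 lower ones. A gap of over 2-fold between the lowest library of one group and the highest of the other was found for 6 higher genes and 1 lower gene. The widest of the 6 had 72 to 289 CPM in rapamycin and 0.20 to 20.6 CPM in injury, a gap of 3.49-fold (edgeR adjusted p = 0.902, DESeq2 adjusted p = 0.191). The 1 lower gene owed its level to a single library, with 98.0 CPM in injury replicate 3 and 0.54 and 0.59 CPM in the other injury libraries.

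**Figure D2:**
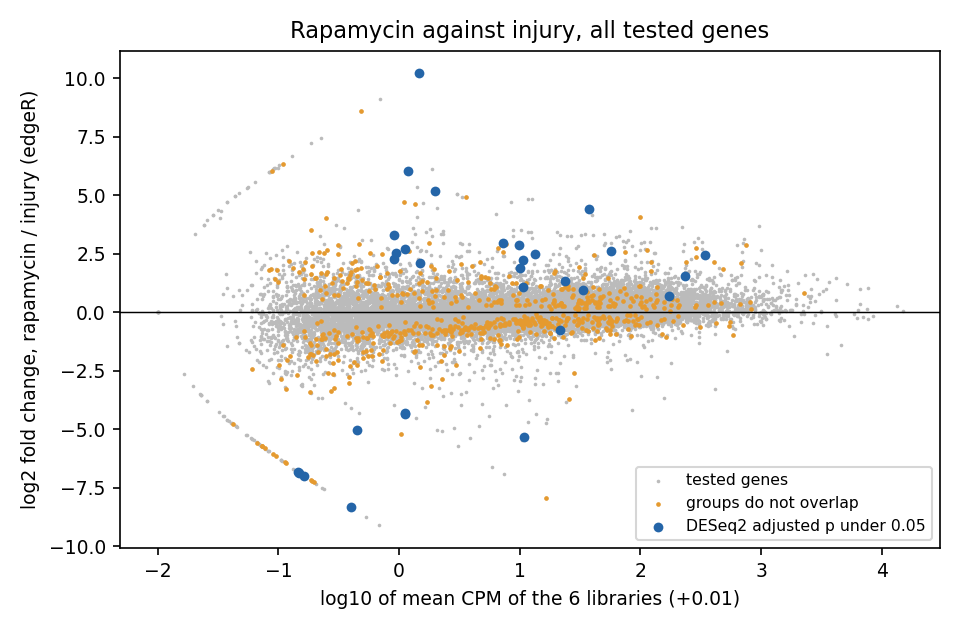
edgeR log2 fold change of rapamycin over injury (vertical axis) against the log10 mean CPM of the 6 libraries (horizontal axis) for 17521 genes; orange points are genes whose groups do not overlap, blue points the 30 genes called by DESeq2. Most genes lie near 0, and several of the lower blue points sit at low levels, where a gene has no count in 1 group.

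The rapamycin libraries contributed unequally to the unadjusted differences. Among the 523 genes higher at an unadjusted p under 0.05, the highest rapamycin library was replicate 2 for 320 (61.2%), replicate 1 for 176 (33.7%) and replicate 3 for 27 (5.16%). For the 244 lower genes it was replicate 2 for 40 (16.4%), replicate 1 for 90 (36.9%) and replicate 3 for 114 (46.7%). Over all tested genes these shares were 36.9, 23.9 and 39.2% for replicates 2, 1 and 3. The groups did not overlap for 141 of the 523 (27.0%) and for 118 of the 244 lower genes (48.4%), beside 3.94% of all tested genes. A small p and a lack of overlap come from the same 6 libraries, so these larger shares are not a separate result. Among the separated genes of at least 5 CPM, the rapamycin library nearest to injury was replicate 3 for 121 of 183 higher genes (66.1%) and 103 of 197 lower genes (52.3%). For the 21 higher DESeq2 genes it was replicate 3 in 15, replicate 2 in 6 and replicate 1 in 0. For the 9 lower DESeq2 genes it was replicate 1 in 5, replicate 2 in 2 and replicate 3 in 2. These genes were picked from the same 6 libraries. The nearest library was not counted over all tested genes, so these shares have no background beside them.

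Each rapamycin library resembled a library of another group more than it resembled any of its own. Between 2 rapamycin libraries, 24.6 to 57.8% of tested genes differed by over 2-fold (mean 43.8%, 3 pairs), and between 2 injury libraries 17.4 to 41.6% (mean 29.7%, 3 pairs). Across the groups the range was 16.0 to 61.4% (mean 32.4%, 9 pairs). Rapamycin replicate 1 correlated best across genes with injury replicate 1 (Spearman 0.973), as did rapamycin replicate 2 (0.928). Rapamycin replicate 3 correlated best with TDN replicate 1 (0.980). The highest correlation of each with another rapamycin library was 0.956, 0.904 and 0.956. Injury libraries 1 and 3 were also most like a library of another group. Injury replicate 1 was nearest to rapamycin replicate 1 (0.973, against 0.971 within injury). Injury replicate 3 was nearest to TDN replicate 2 (0.977, against 0.925 within injury). Injury replicate 2 was nearest to injury replicate 1 (0.971). These correlations describe libraries and are not tests.

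**Figure D3:**
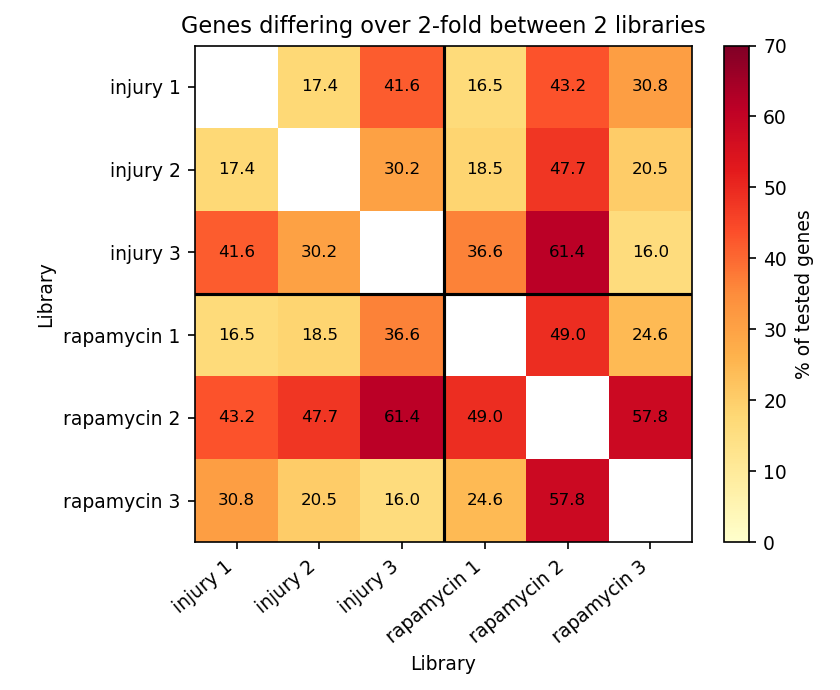
Share of tested genes (percent, colour scale and printed values) that differed by over 2-fold in log2 CPM between 2 libraries of the injury and rapamycin groups; thick lines part the groups. Rapamycin replicate 2 has 43.2 to 61.4% against every other library, and the lowest value, 16.0%, is between injury replicate 3 and rapamycin replicate 3.

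Rapamycin replicate 2 stood farthest from its group. For 4619 genes it lay over 2-fold below both other rapamycin libraries and for 2544 genes over 2-fold above both, together 40.9% of tested genes. The same count was 17.7% for rapamycin replicate 3 and 5.59% for replicate 1. In the injury group it was 24.2% for replicate 3, 10.8% for replicate 1 and 5.25% for replicate 2. The root mean square log2 distance of a library from the mean of its group's other libraries was 1.0, 1.91 and 1.46 in rapamycin and 1.07, 0.861 and 1.38 in injury. The mean distance was 0.356 larger in rapamycin, which did not pass an exact two-sided permutation test over the labels of the 6 libraries (p = 0.5; 3 against 3 cannot go below 0.1). Without rapamycin replicate 2 this difference was -0.014. The rapamycin distances then run to 1 library and not to a mean of 2, which tends to make them larger, so the 2 differences are not strictly comparable.

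Leaving out that library brought no gene past the threshold. Without rapamycin replicate 2, edgeR called 0 genes, with 1040 at an unadjusted p under 0.05 (574 higher, 466 lower). Without rapamycin replicate 3 it called 3 genes, all higher and all among the 30 of DESeq2, and 3521 had an unadjusted p under 0.05 (1958 higher, 1563 lower). Without any other single library of the 6 it called 0.

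The 3 genes were higher in rapamycin replicates 1 and 2 than in replicate 3. They were singled out after their values were seen and are described by level. The first was at 161 and 114 CPM in replicates 1 and 2 and at 18.4 CPM in replicate 3, with 12.9 to 20.9 CPM in injury. Sham (11.4 to 15.8 CPM) and TDN (9.65 to 14.9 CPM) overlapped the injury range or lay below it, so 2 libraries of the 12 carried the difference. The second was at 438 and 450 CPM in replicates 1 and 2 and at 162 CPM in replicate 3, with 89.9 to 134 CPM over the 9 other libraries. The third was at 933 and 703 CPM against 103 CPM, with 69.3 to 131 CPM in injury, 6.41 to 10.5 CPM in sham and 49.7 to 75.1 CPM in TDN. With replicate 3 included, each had an edgeR adjusted p of 0.902, and without it 0.0218, 0.0218 and 0.0339. Of the 3, only the second kept all rapamycin libraries above all injury libraries.

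The spread sets what this comparison could show. The median SD of log2 CPM was 0.514 in injury and 0.773 in rapamycin, beside 0.174 in sham and 0.185 in TDN. The median 95% interval of the log2 fold change reached 0.998 to either side of the estimate, close to a 2-fold change. For 5408 of the 17521 genes (30.9%) the interval lay wholly within a 2-fold change in either direction, and for 12103 (69.1%) within a 4-fold change. These intervals hold for 1 gene at a time, and 8 genes without a count in the 6 libraries had none. They draw on the spread of all 12 libraries, so the tighter sham and TDN libraries can make them too narrow for injury and rapamycin. A fit of the 6 libraries alone had 186 genes at an unadjusted edgeR p under 0.05, beside 767, and no interval was taken from it. Without rapamycin replicate 2 the share within 2-fold was 44.4%, and without another single library of the 6 it was 21.3 to 29.5%. For a gene whose interval reaches past 2-fold, a change of that size is not excluded by these data, and the lack of a call does not show that the groups were alike.

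Precision followed the level of the gene. Of 1979 genes with a mean over 100 CPM in the 12 libraries, 48.8% had an interval within 2-fold, as did 46.9% of 8157 genes at 10 to 100 CPM. The share was 13.4% of 4595 genes at 1 to 10 CPM and 0.179% of 2790 genes under 1 CPM. Among the genes over 100 CPM, 102 had an unadjusted p under 0.05 on the higher side and 17 on the lower side. The median log2 fold change of this class was 0.14, and the groups did not overlap for 37 higher and 16 lower. Genes at 1 to 10 CPM had a median of -0.15, with 129 higher and 84 lower at that level of p. Their groups did not overlap for 75 higher and 130 lower genes. With both directions, that p was met by 6.01% of genes over 100 CPM and 4.64% at 1 to 10 CPM. The share was 4.38% over all tested genes. Non-overlap was found for 2.68% of genes over 100 CPM and 4.46% at 1 to 10 CPM, beside 3.94% of all tested genes. Differences between the classes were not tested.

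**Figure D4:**
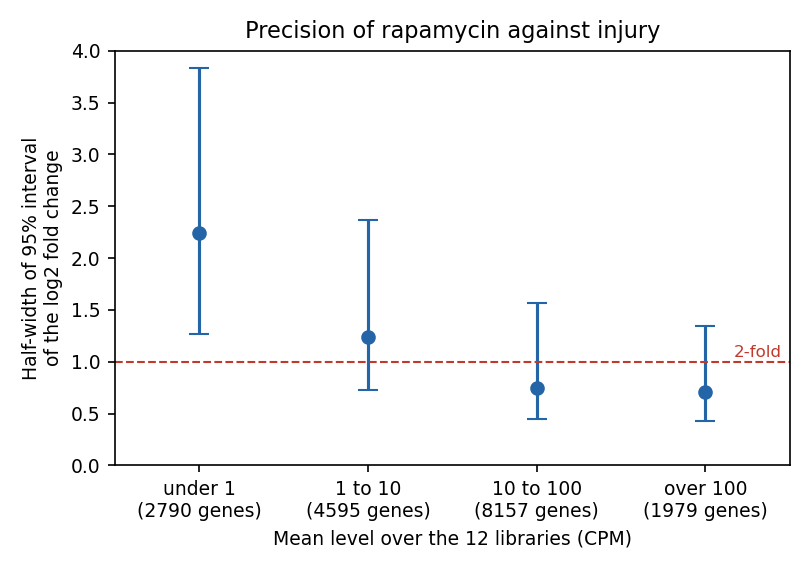
Half-width of the 95% interval of the log2 fold change of rapamycin over injury (vertical axis) for genes in 4 classes of mean CPM over the 12 libraries (horizontal axis); points are medians, bars run from the 10th to the 90th percentile of genes, and the dashed line marks a 2-fold change. The median falls from 2.24 under 1 CPM to 0.712 over 100 CPM.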

How the data were processed

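The deposited values are the authors' raw counts, 1 whole number for each gene and library, with no scaling. Rnor 6.0 is the build named in the submitters' processing notes. Which aligner, counter, annotation and strand setting were used is not given in these sources, so overlapping, antisense or near-identical genes could not be separated. Groups came from the treatment labels. The table held 3 further columns that matched no labelled sample and were not used. Genes were tested with edgeR 4.0.16 (R 4.3.3; quasi-likelihood test, TMM scaling, default filter by group) over all 12 libraries with 1 coefficient per group and without covariates. After filtering, 17521 genes were tested and 15102 were not. Residual degrees of freedom were 8 and the common biological coefficient of variation 0.504. The threshold was 0.05 after Benjamini-Hochberg adjustment. Standard errors are the absolute log2 fold change over the square root of F, and log2 CPM used a prior count of 2. Alternatives used DESeq2 1.42.0 and limma 3.58.1 (voom), other scalings and filters, fewer libraries and a replicate block. The scripts were tested on simulated data, with a pass rule only at a spread lower than that of these libraries. The test therefore does not show what could be found at the spread of these libraries. Named genes had the smallest p among those with at least 5 CPM in the higher group and no overlap of libraries, 2 in each direction. The comparison itself, the lists and the rules were chosen with earlier results of these data known, while each library's group came from its label. The gene lists and marker lists written by symbol were not evaluated, since 0 IDs matched the table of 47357 genes (assembly GRCr8), and no sequence is printed for the same reason.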

Additional observations from a re-analysis of the deposited data

How the results depend on the processing

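Of 18 alternatives, 16 called 0 genes; DESeq2 called 30, and leaving out 1 library gave 0 to 3 (3 without rapamycin replicate 3; the cause was not tested). Genes at an unadjusted p under 0.05 numbered 767 in the reported fit, 186 in a fit of the 6 libraries alone, 447 without the TDN libraries, 236 with a minimum log2 fold change of 1, 1255 in DESeq2 and 2230 in voom with quality weights. Leaving out 1 library gave 610 to 3521. Genes whose groups did not overlap numbered 690 of 17521, 682 to 759 under other scalings, and 1347 to 3422 without 1 library, where fewer libraries have to be separated. The difference in mean distance between the rapamycin and injury libraries, 0.356, was 0.352 to 0.434 under other scalings and a prior count of 0.5, and -0.0802 to 1.06 without 1 library, with the sign turned without injury replicate 2 (-0.0802) and without rapamycin replicate 2 (-0.014). With 1 library left out, distances in that group run to 1 library and not to a mean of 2, which tends to make them larger. The differences without 1 library, and their signs, are therefore not strictly comparable with 0.356. Of 72 values of the 4 named genes under alternatives, 0 turned sign and 3 passed the threshold, all in DESeq2. With the replicate number as a block, edgeR called 0 genes (770 at an unadjusted p under 0.05). Deviations of same-numbered injury and rapamycin libraries correlated at 0.092, 0.156 and 0.550 across genes. The same-numbered library was the best match for injury replicates 2 and 3, while injury replicate 1 correlated best with rapamycin replicate 2 (0.353). With 3 libraries a group these deviations depend on each other, so they cannot settle whether the numbers are pairs. No label names a pairing, and the reported fit used none. Alternatives for gene lists were not run, since no ID matched a symbol. No batch is labelled. Intervals were widest for genes under 1 CPM; the part of depth in this was not tested. In an alternative added after the values were seen, the share of genes with an interval within 2-fold, 30.9%, was 21.3 to 44.4% without 1 library.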

Other observations

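For a few genes, rapamycin replicates 1 and 2 shared high levels that the third library of their group lacked. Of 12718 genes with at least 5 CPM in 1 of the 4 groups, 80 lay over 2-fold higher in both of these libraries than in each of the other 10, and 18 lay over 2-fold lower. The same count for the other within-group pairs was 0 to 13 higher. On the lower side it was 129 for sham replicates 1 and 2 and 0 to 6 for the remaining pairs. This description was chosen after the values were seen and was not tested.

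A few genes had counts in only 1 of the 2 groups. Of the tested genes, 15 had 0 counts in the 3 rapamycin libraries and at least 3 counts in each injury library, and 4 had the reverse. With at least 10 counts in each library of the other group, 2 and 2 remained. The 2 genes at 0 in rapamycin had 10 to 57 counts in injury and counts in all 3 sham and all 3 TDN libraries (edgeR adjusted p = 0.472 and 0.596, both called by DESeq2). The 2 genes at 0 in injury had 13 to 353 counts in rapamycin (edgeR adjusted p = 0.902 for both, 1 called by DESeq2). Neither had a count in all 3 sham libraries, and 1 had a count in all 3 TDN libraries. In rapamycin replicate 2, 3 counts correspond to 0.102 CPM, beside 0.0555 to 0.0630 CPM in the other 5 libraries of the comparison. These limits cover counting error only.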
